A study of Mus musculus with 8 samples.

Results

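The mitochondrial ribosome and the machinery that carries proteins into mitochondria are built from proteins encoded in the nucleus. Here they were taken as the genes whose symbol begins with Mrpl, Mrps, Timm or Tomm followed by a digit, with an average of 1 TPM or more across the 8 libraries and without names that contain "-ps". TPM is a length-corrected transcript abundance that sums to 1000000 in every library, so the read depth behind a TPM value is unknown. The rule gave 101 genes of the 11725 tested: 49 Mrpl genes of the large ribosomal subunit, 29 Mrps genes, nearly all of the small subunit, and 23 import genes. Of 110 names that match, 5 were left out as "-ps" names, 2 for a low mean and 2 because the same symbol and values were listed again under another gene ID. Just inside the threshold stood Mrpl47 with a mean of 10.5 TPM, and just outside it stood Timm8a2 at 0.0254 TPM and Tomm20l at 0.0224 TPM. No fold change entered the rule itself, but the gene group was proposed with results of this comparison known, so its counts and medians are given as a description.

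Mitochondria keep a small genome whose few protein products are subunits of the respiratory chain and of ATP synthase. Those proteins are made inside the organelle on a ribosome of bacterial ancestry, whose RNA is mitochondrial and whose proteins are all made in the cytosol and imported. Imported proteins pass the outer membrane through the TOM complex and are then sorted: the TIM23 complex takes proteins with a presequence into or across the inner membrane, the TIM22 complex inserts carrier proteins, and small TIM chaperones guide hydrophobic proteins through the space between the membranes. In macrophages mitochondrial respiration is tied to their activation state and to the clearance of dying cells.

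The libraries were made from macrophages of the left ventricle of mice that had received a bone marrow transplant (BMT). LOY BMT mice gave 4 libraries, with a genotype label of loss of Y, and control BMT mice gave 4 libraries. In both groups about 6000 live CD45.2+ Ly6G- CD64+ RFP+ cells were sorted per library, where RFP is a red fluorescent protein, and both carry the treatment label Control. The sources used here do not give how Y was lost, what RFP marks, or the strain and age of the mice. They also leave out whether replicate libraries are from different animals, so that p-values reflect only library-to-library spread, which may be technical. The LOY label was checked with the summed TPM of the Y genes Ddx3y, Eif2s3y, Kdm5d and Uty, which was 2.77, 46.4, 1.495 and 2.12 in LOY libraries 1 to 4 and 104, 95.2, 80.8 and 109 in control libraries 1 to 4 (13.2 ± 22.1 in LOY and 97.3 ± 12.4 in control, SD, n = 4 each; exact two-sided permutation p = 0.0286, the smallest that 4 against 4 allows). LOY library 2 stood apart from the other LOY libraries, so counts are also given without it. The macrophage label was borne out by 9 of 9 markers, all detected in every library, whose summed level lay between 30790 and 43780 TPM in LOY libraries and between 33730 and 39930 TPM in control libraries. Most of that sum is Lyz2 and C1qb; 3 of the 9 (Csf1r, Itgam and Mertk) were higher in LOY libraries at an unadjusted limma p under 0.05, and Mertk did not overlap, at 35.5 to 73.3 TPM in LOY and 12.1 to 32.1 TPM in control libraries. The part of this shift in the results was not tested.

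Most genes of both groups had a lower mean in LOY macrophages, by small amounts. The median log2 fold change (LOY minus control, on log2(TPM + 1)) was -0.26 over the 78 ribosome genes and -0.21 over the 23 import genes, while the median of all 11725 genes tested was 0.16. It was below 0 for 75 of 78 ribosome genes (96.2%) and for 19 of 23 import genes (82.6%), against 31.8% of all genes tested. Among other genes with transcripts of up to 2000 bases that share was larger, as given below with transcript length. No gene of either group passed limma with Benjamini-Hochberg adjustment over all genes at 0.05, in a comparison in which 0% of all genes passed in each direction; the smallest adjusted p was 0.179. At an unadjusted limma p under 0.05, 27 ribosome genes (34.6%) and 3 import genes (13.0%) were lower, beside 3.45% of all genes. Higher by the same rule were 1 ribosome gene and 1 import gene, beside 19.3% of all genes. The groups did not overlap, with LOY lower, for 18 of the 101 genes (2.61% of all genes), and with LOY higher for 1 (6.76% of all genes). These genes vary together between libraries, so the counts do not add up as independent results.

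Summed over the 78 ribosome genes, expression was 4090, 4360, 4759 and 4057 TPM in LOY libraries 1 to 4, against 4751, 5187, 5815 and 5130 TPM in control libraries 1 to 4. The LOY mean was 4316 ± 325 TPM and the control mean 5221 ± 441 TPM (SD, n = 4 each), so the LOY mean was 82.7% of the control mean. Of the LOY libraries only library 3 lay above a control library, library 1. Import genes summed to 1349, 1439, 1582 and 1358 TPM in LOY libraries and to 1570, 1626, 1786 and 1651 TPM in control libraries (1432 ± 108 TPM in LOY and 1658 ± 91.7 TPM in control, SD, n = 4 each), which put the LOY mean at 86.4% of the control mean. In the import sum, too, LOY library 3 lay above control library 1 and all other LOY libraries lay below every control library. All 101 genes together took 0.542% to 0.634% of the total TPM in LOY libraries and 0.632% to 0.760% in control libraries. In a bulk sample fewer cells of a type and less RNA per cell cannot be told apart.

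**Figure D1:**
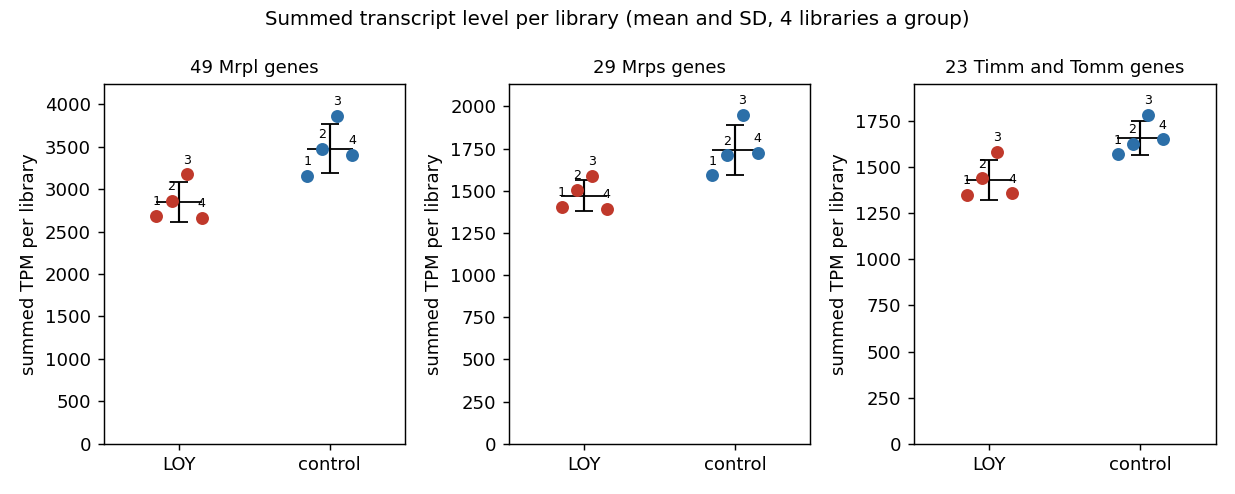
Summed TPM (y axis) of the 49 Mrpl, the 29 Mrps and the 23 import genes in each library, LOY on the left and control on the right; numbered points are libraries, and the line with bars is the mean ± SD (n = 4). Mrpl genes sum to 2665 to 3173 TPM in LOY and 3160 to 3866 TPM in control, Mrps genes to 1392 to 1586 TPM in LOY and 1591 to 1949 TPM in control, and import genes to 1349 to 1582 TPM in LOY and 1570 to 1786 TPM in control.

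Among large-subunit genes the lower means were spread over both the proteins that bacterial ribosomes also have and those added in mitochondria. Of 49 Mrpl genes 48 had a log2 fold change below 0 (median -0.27). In that direction 18 had an unadjusted limma p under 0.05 (36.7% beside 3.45% of all genes). Without overlap and with LOY lower were 10 (20.4% beside 2.61% of all genes). Mrpl36, whose bacterial counterpart is a very small zinc-binding protein, stood at 40.0, 48.3, 57.1 and 47.2 TPM in LOY libraries 1 to 4 and at 62.9, 63.1, 73.0 and 66.1 TPM in control libraries 1 to 4. All LOY libraries lay below all control libraries, and the difference was -0.46 on the log2 scale (SE 0.13; adjusted p = 0.179 by limma). Mrpl27, whose bacterial counterpart reaches towards the peptidyl transferase centre, stood at 113, 101, 118 and 102 TPM in LOY libraries and at 141, 144, 174 and 129 TPM in control libraries. These values did not overlap, and the log2 fold change was -0.42 (SE 0.12, limma adjusted p = 0.179).

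Mrpl11, a stalk-base protein next to the site where translation factors bind, stood at 31.0, 34.8, 31.2 and 30.9 TPM in LOY libraries and at 38.1, 46.7, 49.4 and 39.0 TPM in control libraries (log2 fold change -0.42, SE 0.12). Mrpl15, of a family shared with bacteria, stood at 43.5, 52.1, 45.8 and 38.6 TPM in LOY libraries and at 56.4, 63.9, 63.1 and 55.1 TPM in control libraries (log2 fold change -0.40, SE 0.12). For Mrpl57, a protein found only in mitochondrial ribosomes, the values were 46.7, 67.4, 72.8 and 62.9 TPM in LOY libraries and 80.2, 85.1, 88.6 and 87.7 TPM in control libraries (log2 fold change -0.46, SE 0.14). Again no LOY library reached the lowest control library in any of these genes, and the limma adjusted p was 0.179 for each of them.

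Mrpl33 and Mrpl42 were the most abundant of the Mrpl genes. Mrpl33 averaged 273 ± 39.0 TPM in LOY and 369 ± 51.5 TPM in control libraries (SD, n = 4 each; log2 fold change -0.44, limma adjusted p = 0.181), and Mrpl42 averaged 269 ± 34.5 TPM in LOY and 333 ± 60.0 TPM in control libraries (log2 fold change -0.30, limma adjusted p = 0.251). At the low end Mrpl47 averaged 9.13 ± 1.65 TPM in LOY and 11.9 ± 1.35 TPM in control libraries (log2 fold change -0.36). Mrpl1 averaged 11.4 ± 3.36 TPM in LOY and 12.7 ± 1.99 TPM in control libraries, and its LOY mean was set by library 1 at 6.43 TPM, the other LOY libraries lying between 12.5 and 13.4 TPM. Without LOY library 1 the log2 fold change of Mrpl1 was 0.052 rather than -0.18. Mrpl42 was at -0.18 without control library 3 and Mrpl47 at -0.23 without LOY library 2.

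Mrpl38 was the exception among Mrpl genes and is named after its values were seen. This protein of the mitochondria-specific part of the large subunit stood at 49.5, 47.2, 45.9 and 48.5 TPM in LOY libraries 1 to 4 and at 40.7, 42.2, 39.2 and 37.1 TPM in control libraries 1 to 4. Every LOY library lay above every control library, and the difference was 0.26 on the log2 scale (SE 0.10; adjusted p = 0.190 by limma). When each library was rescaled by a median of ratios, which moved the median of all genes to 0.00, the log2 fold change of Mrpl38 was 0.08. With a trend on transcript length and GC content removed from each library it was 0.25, where the median of all genes was -0.01. The limma p in that setting was 0.027 unadjusted and 0.286 adjusted.

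Mrps genes showed the same direction, with 27 of 29 below 0 (median -0.23). Of the 29, 9 were lower at an unadjusted limma p under 0.05 (31.0% beside 3.45% of all genes). Mrps26, a mitochondria-specific protein, stood at 34.9, 29.4, 32.5 and 26.0 TPM in LOY libraries 1 to 4 and at 39.3, 42.6, 43.8 and 42.5 TPM in control libraries 1 to 4 (log2 fold change -0.45, SE 0.12, limma adjusted p = 0.179). Mrps31, another protein that bacteria lack, stood at 9.18, 10.2, 9.21 and 10.8 TPM in LOY libraries and at 12.7, 13.3, 12.6 and 13.5 TPM in control libraries (log2 fold change -0.38, SE 0.13). Neither gene overlapped between groups, and both had control libraries within a narrow range.

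For Mrps25, also mitochondria-specific, the values were 37.1, 41.1, 36.0 and 35.9 TPM in LOY libraries and 47.6, 44.4, 62.6 and 48.1 TPM in control libraries (log2 fold change -0.41, SE 0.13). Mrps5, whose bacterial counterpart lines the mRNA entry, stood at 21.2, 21.3, 21.5 and 30.8 TPM in LOY libraries and at 30.7, 32.7, 28.9 and 39.4 TPM in control libraries (log2 fold change -0.46, SE 0.16). Mrps16, of a family shared with bacteria, stood at 30.2, 30.4, 36.0 and 28.1 TPM in LOY libraries and at 34.7, 47.4, 49.7 and 37.4 TPM in control libraries (log2 fold change -0.42, SE 0.15). Mrps25 did not overlap between groups, whereas LOY library 4 overlapped the control libraries in Mrps5 and LOY library 3 overlapped them in Mrps16; the limma adjusted p was 0.181, 0.181 and 0.182 in these genes.

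The most abundant small-subunit gene was Mrps21, with 198 ± 18.5 TPM in LOY and 248 ± 37.3 TPM in control libraries (SD, n = 4 each; log2 fold change -0.32, limma adjusted p = 0.204), followed by Mrps18c with 138 ± 27.6 TPM in LOY and 160 ± 16.1 TPM in control libraries (log2 fold change -0.23, limma adjusted p = 0.365; -0.12 without LOY library 1). Mrps23, one of the least abundant, averaged 14.3 ± 1.41 TPM in LOY and 15.2 ± 1.15 TPM in control libraries (log2 fold change -0.08), a difference within the spread between libraries. Mrps36 carries a ribosomal name but is known as a component of the 2-oxoglutarate dehydrogenase complex; its log2 fold change was -0.16. The 2 Mrps genes above 0, named after their values were seen, were Mrps6 (0.13, with LOY library 4 at 38.6 TPM and the other LOY libraries between 21 and 25.9 TPM) and Mrps27 (0.06), and both were below 0 after median-of-ratios scaling. With the length and GC trend removed Mrps6 was at 0.24 and Mrps27 at 0.06. By origin, the median was -0.24 over 48 ribosome genes of families with a bacterial counterpart and -0.29 over 29 without one. Of them 15 (31.25%) and 12 (41.4%) were lower at an unadjusted limma p under 0.05, beside 3.45% of all genes.

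**Figure D2:**
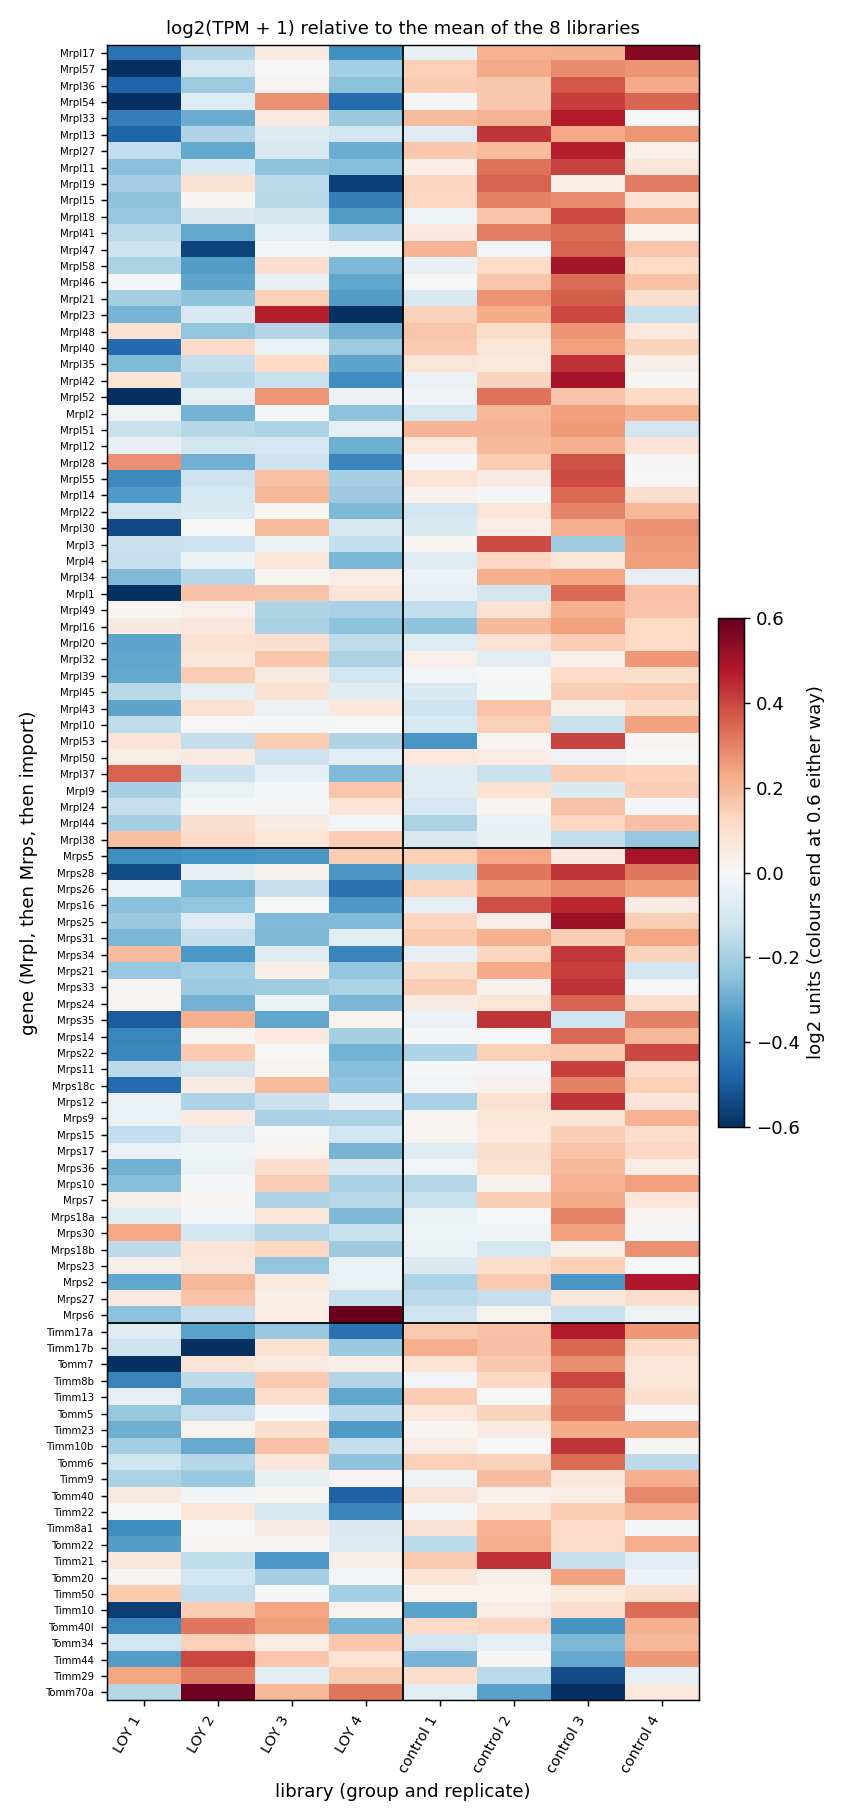
Each row is one of the 101 genes and each column a library, LOY on the left and control on the right; the colour is the log2(TPM + 1) value minus the gene's mean over the 8 libraries. Control library 3 holds the highest value of 58 genes, and LOY libraries 1 and 4 hold the lowest value of 41 and 32 genes.

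The highest and lowest values were gathered in a few libraries. Control library 3 held the highest value of 58 of the 101 genes and control library 4 that of 21, while LOY library 1 held the lowest value of 41 genes and LOY library 4 that of 32. Control library 1 lay closest to the LOY libraries, with a ribosome sum of 4751 TPM against 4759 TPM in LOY library 3. Without control library 1, 8 ribosome genes and 1 import gene were lower at a limma adjusted p under 0.05, beside 0.537% of all genes lower and 14.9% higher in that fit. They were Timm17a (adjusted p = 0.0237), Mrpl13 (0.0333), Mrps28 (0.0379), Mrpl18 (0.0382), Mrpl11 (0.0386), Mrpl17 (0.0407), Mrps26 (0.0415), Mrps16 (0.0463) and Mrpl36 (0.0474). In the unweighted fit none of the 101 genes passed with all libraries or with any other single library left out. With library weights and all libraries, genes of both groups did pass as lower, as counted at the end, beside 3% of all genes lower and 23.5% higher. In that weighted fit Timm17a was lower (limma adjusted p = 0.0096) and Tomm70a was higher (limma adjusted p = 0.0191). Since control library 1 lay closest to the LOY libraries in these genes, leaving it out widens the difference by construction. The number of ribosome genes lower at an unadjusted limma p under 0.05 was 15 without LOY library 4 (2.03% of all genes lower and 10.5% higher in that fit), 15 without control library 2 (1.88% and 10.9% of all genes, lower and higher) and 17 without control library 3 (2.11% lower and 9.93% higher), against 27 with all libraries. For import genes it was 1 without LOY library 2 and 7 without LOY library 3 (3.58% of all genes lower and 17.1% higher), against 3 with all libraries. Without LOY library 2, the LOY library with the highest level of Y transcripts, the medians were -0.26 for ribosome and -0.21 for import genes, and 19 ribosome genes and 1 import gene were lower at an unadjusted limma p under 0.05, beside 2.68% of all genes lower and 11.4% higher.

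Log2 fold changes ran from -0.54 to 0.47 over the 23 import genes and from -0.46 to 0.26 over the 78 ribosome genes. In the TIM23 complex, 5 of 6 genes were below 0 (median -0.23). Timm17a, which encodes a channel-forming subunit, had the largest log2 fold change in size of all 101 genes: it stood at 91.3, 76.8, 82.0 and 70.4 TPM in LOY libraries 1 to 4 and at 107, 109, 134 and 116 TPM in control libraries 1 to 4. Its LOY values were all lower, and the log2 fold change was -0.54 (SE 0.12, limma adjusted p = 0.179). Timm17b, the X-linked paralogue that takes the same place in another form of the complex, stood at 32.4, 23.0, 37.9 and 30.2 TPM in LOY libraries and at 41.4, 40.3, 45.2 and 38.4 TPM in control libraries (log2 fold change -0.43, SE 0.15; adjusted p = 0.182 by limma). The groups did not overlap in Timm17b either, and the ratio of Timm17a to Timm17b was 2.66 ± 0.530 in LOY and 2.82 ± 0.205 in control libraries (SD, n = 4 each), so that it differed by less than its spread.

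The remaining TIM23 genes did not pass an unadjusted limma p of 0.05. Timm23, the other channel-forming subunit, averaged 150 ± 23.0 TPM in LOY and 177 ± 13.7 TPM in control libraries (log2 fold change -0.26, limma adjusted p = 0.262). Timm21, which contacts the TOM complex in yeast, and the presequence receptor gene Timm50 had log2 fold changes of -0.20 and -0.10, and of -0.08 without control library 2 (Timm21) and -0.05 without LOY library 4 (Timm50). Timm44, which tethers the import motor to the channel, had a log2 fold change of 0.16, of 0.05 without LOY library 2 and of -0.02 after median-of-ratios scaling, so its direction depended on the scaling.

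In the TOM complex, 7 of 8 genes were below 0 (median -0.21). Tomm5, a small subunit next to the pore, stood at 98.9, 106, 115 and 104 TPM in LOY libraries 1 to 4 and at 121, 128, 145 and 116 TPM in control libraries 1 to 4. LOY library 3 and control library 4 came close to each other without overlapping, and the difference was -0.26 on the log2 scale (SE 0.11; adjusted p = 0.203 by limma). With the length and GC trend removed the difference of Tomm5 was -0.09. The other small subunits Tomm6 and Tomm7 had log2 fold changes of -0.23 and -0.30, the pore gene Tomm40 of -0.22, the central receptor Tomm22 of -0.20 and the presequence receptor Tomm20 of -0.16. Some of these rest on 1 library: Tomm7 was -0.09 and Tomm22 -0.12 without LOY library 1, Tomm40 was -0.09 without LOY library 4 and Tomm20 was -0.11 without control library 3. Tomm40l, a paralogue of the pore protein, averaged 22.7 ± 5.83 TPM in LOY and 23.3 ± 3.98 TPM in control libraries. Its log2 fold change of -0.05 turned to 0.07 without LOY library 1.

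Tomm70a, the receptor for carrier proteins and other clients brought by cytosolic chaperones, had a higher mean in LOY libraries. It stood at 18.3, 31.5, 23.9 and 26.1 TPM in LOY libraries 1 to 4 and at 19.7, 16.3, 13.2 and 21.7 TPM in control libraries 1 to 4. LOY library 1 lay inside the control range and the other LOY libraries lay above it, and the difference was 0.47 on the log2 scale (SE 0.20; adjusted p = 0.204 by limma). After median-of-ratios scaling the difference was 0.29, and with a trend on transcript length and GC content removed from each library it was 0.14 (limma adjusted p = 0.668). Under neither setting was the unadjusted limma p below 0.05.

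The carrier pathway genes were mixed. Timm29, a subunit of the TIM22 complex in animals, averaged 24.1 ± 2.73 TPM in LOY and 19.3 ± 3.62 TPM in control libraries (log2 fold change 0.32, limma adjusted p = 0.255); this was 0.15 after median-of-ratios scaling, 0.10 with quantile normalization, 0.11 with the length and GC trend removed and 0.20 without control library 3. The channel gene Timm22 averaged 25.8 ± 3.62 TPM in LOY and 29.9 ± 2.01 TPM in control libraries, and Timm10b, a chaperone bound to that complex, 179 ± 27.0 TPM in LOY and 211 ± 32.4 TPM in control libraries (log2 fold changes -0.21 and -0.24; -0.12 for Timm22 without LOY library 4 and -0.14 for Timm10b without control library 3). The 5 small chaperone genes of the intermembrane space were all below 0: Timm8b at -0.29, Timm13 at -0.28, Timm9 at -0.22, Timm8a1 at -0.21 and Timm10 at -0.08 on the log2 scale, none with an unadjusted limma p under 0.05. Without LOY library 1, Timm8a1 was at -0.12 and Timm10 changed sign, to 0.09. Tomm34, a cytosolic partner of import, had a log2 fold change of 0.12, which was -0.06 after median-of-ratios scaling.

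**Figure D3:**
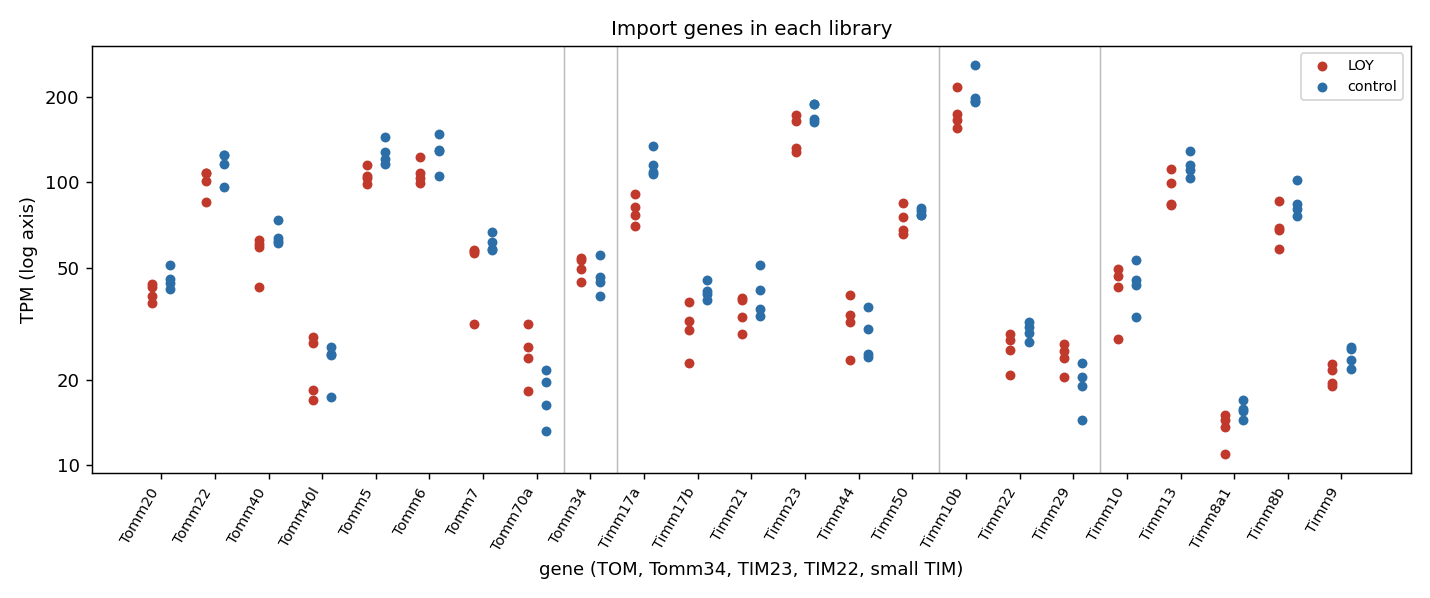
TPM of the import genes in each library, LOY points to the left of control points for each gene, grouped by complex, on a log axis. Timm17a, Timm17b and Tomm5 have every LOY library below every control library, and Tomm70a has 3 of 4 LOY libraries above the control range.

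Ribosome and import genes were set side by side. The ribosome median minus the import median was -0.046 on the log2 scale, and without control library 3 it was 0.0058, so that the order of the medians rests on that library. The ratio of the ribosome sum to the import sum was 3.03, 3.03, 3.01 and 2.99 in LOY libraries 1 to 4 and 3.03, 3.19, 3.26 and 3.11 in control libraries 1 to 4 (3.02 ± 0.0213 in LOY and 3.15 ± 0.0998 in control, SD, n = 4 each). Control library 1 had a ratio like that of the LOY libraries. No test of the difference between the groups of genes is given, since their members were chosen with results known.

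**Figure D4:**
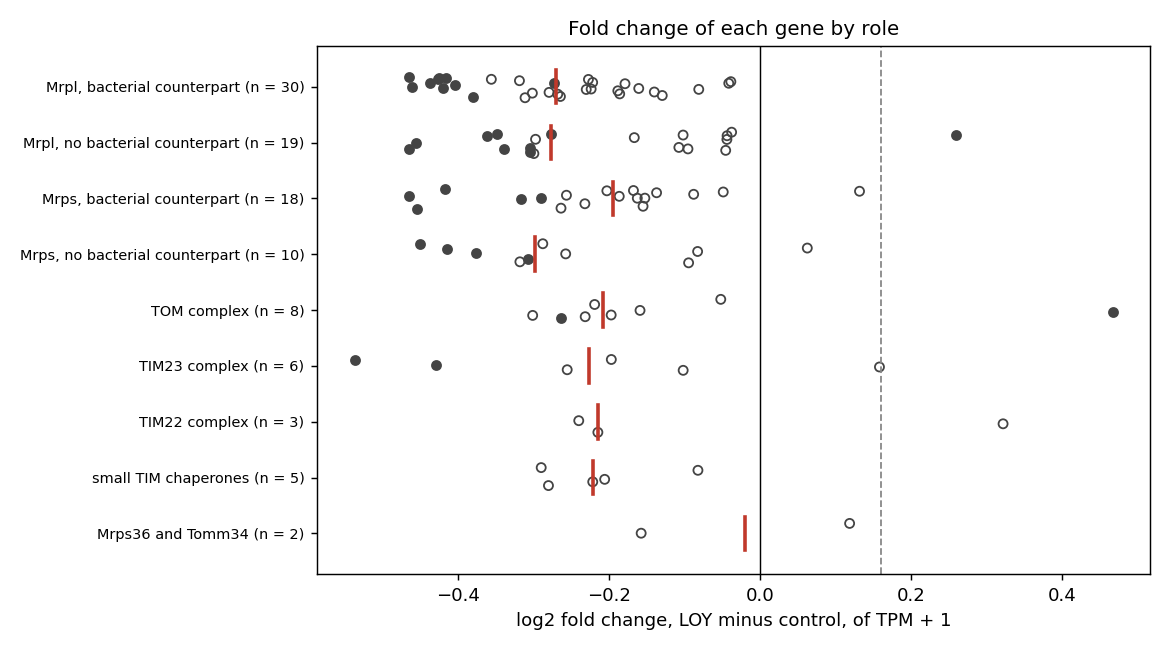
Log2 fold change (LOY minus control, x axis) of each gene by role; each point is a gene, filled where the unadjusted limma p is under 0.05, the red line is the median of the role and the dashed line the median of all genes tested (0.16). Of the 78 ribosome genes 75 lie below 0, and of the 23 import genes 19.

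Promoters are shown for the ribosome and import genes with the smallest limma p and for Tomm70a, the import gene with the highest fold change, because nuclear genes for mitochondrial proteins are known to carry sites for ETS-family factors such as GABP (the letters CCGGAAG), for NRF1 (its core CGCATGCG) and for YY1 (AAGATGGCG). Each line gives the 250 bases before the annotated start, 5′ to 3′ on the strand of the gene, from RefSeq on GRCm38.p6, with matches to any of these letters on either strand in capitals. In GENCODE the genes are Mrpl36 (ENSMUSG00000021607, chromosome 13, 73328513 to 73332178, where another transcript starts upstream of the window shown), Mrps26 (ENSMUSG00000037740, chromosome 2, 130563742 to 130568695), Timm17a (ENSMUSG00000062580, chromosome 1, 135295213 to 135313778) and Tomm70a (ENSMUSG00000022752, chromosome 16, 57121703 to 57156705).
Mrpl36, chr13:73330759-73331008, plus strand: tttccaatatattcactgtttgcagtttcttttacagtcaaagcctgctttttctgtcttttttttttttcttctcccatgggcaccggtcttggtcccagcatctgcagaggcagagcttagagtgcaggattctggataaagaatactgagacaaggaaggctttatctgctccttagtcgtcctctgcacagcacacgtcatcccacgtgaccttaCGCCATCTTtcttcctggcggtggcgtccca
Mrps26, chr2:130563507-130563756, plus strand: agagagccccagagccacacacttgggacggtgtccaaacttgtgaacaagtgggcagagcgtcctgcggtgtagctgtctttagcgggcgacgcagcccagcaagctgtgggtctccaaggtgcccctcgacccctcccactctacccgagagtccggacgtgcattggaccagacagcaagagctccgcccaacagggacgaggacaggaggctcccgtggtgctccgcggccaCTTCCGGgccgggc
Timm17a, chr1:135313738-135313987, minus strand: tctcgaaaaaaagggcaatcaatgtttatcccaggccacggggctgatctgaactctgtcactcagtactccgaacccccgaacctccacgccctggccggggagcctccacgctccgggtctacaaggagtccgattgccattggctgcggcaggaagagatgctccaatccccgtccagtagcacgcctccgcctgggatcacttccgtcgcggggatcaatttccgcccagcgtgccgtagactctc
Tomm70a, chr16:57121464-57121713, plus strand: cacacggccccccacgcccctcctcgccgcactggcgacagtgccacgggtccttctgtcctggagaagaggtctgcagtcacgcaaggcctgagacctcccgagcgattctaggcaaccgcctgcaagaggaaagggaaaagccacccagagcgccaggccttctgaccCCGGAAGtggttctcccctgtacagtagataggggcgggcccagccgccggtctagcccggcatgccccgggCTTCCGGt
The window of Mrpl36 held 1 YY1 match, that of Mrps26 held 1 ETS match, that of Tomm70a held 2 ETS matches, and that of Timm17a held none of the letters searched. Tomm70a, with a higher mean in LOY libraries, and Mrps26, with a lower one, thus shared the ETS letters.

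Over all windows from 250 bases before to 50 after the start, 89 of the 101 genes could be matched by symbol (69 ribosome, 20 import). The ETS letters stood in 37.1% of them, against 20.0% of the promoters of 8859 genes tested and 9.12% of 27025 promoters in all. YY1 letters stood in 10.1%, against 3.6% and 1.49%, and NRF1 letters in 8.99%, against 4.24% and 1.91%. At least 1 of the 3 motifs was found in 35 of 69 ribosome promoters (50.7%) and in 10 of 20 import promoters, against 26.1% of the promoters of genes tested. None of the 3 motifs contains another, and a match is a description of these windows, not evidence of binding.

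Other genes of the same pathways, from lists of known components, did not follow one direction. Of 5 mitochondrial ribosomal proteins with other names, 4 were below 0 (80% beside 31.8% of all genes), with a median of -0.13 beside 0.16. At an unadjusted limma p under 0.05, 2 were lower (40% beside 3.45% of all genes): Aurkaip1 with a log2 fold change of -0.30 and Chchd1 with -0.29. Dap3, which encodes a GTP-binding protein of the small subunit, had -0.13. Of 11 translation factors tested none passed in either direction, beside 3.45% of all genes lower and 19.3% higher. Their median of 0.14 was near the 0.16 of all genes. Those with the smallest p were Mtfmt, which formylates the initiator methionine, at 0.38, the ribosome recycling factor Gfm2 at 0.37 and Guf1 at 0.27. Among 25 assembly factors of the mitochondrial ribosome 1 was lower (4% beside 3.45% of all genes) and 2 were higher (8% beside 19.3% of all genes), with a median of -0.01.

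The lower one was Rbfa, a maturation factor of the small subunit, with 69.9, 65.8, 67.2 and 55.7 TPM in LOY libraries 1 to 4 and 90.0, 93.6, 87.2 and 80.5 TPM in control libraries 1 to 4 (log2 fold change -0.44). Dhx30, an RNA helicase needed for assembly, was one of the higher, with 37.6, 38.3, 35.8 and 46.4 TPM in LOY libraries and 33.5, 21, 15.5 and 27.9 TPM in control libraries (log2 fold change 0.72); the other was Fastkd2 (0.36). Both Rbfa and Dhx30 were without overlap between groups, in opposite directions. Of the 25 assembly factors, 1 was thus without overlap with LOY lower (beside 2.61% of all genes). Likewise 1 was without overlap with LOY higher (beside 6.76% of all genes), so these counts were near those of all genes.

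Among 10 genes of mitochondrial transcription and mRNA handling, none was lower and 2 were higher at an unadjusted limma p under 0.05 (20% beside 19.3% of all genes), with a median of 0.11 beside 0.16 for all genes, so the count was near that of all genes. Polrmt, the mitochondrial RNA polymerase, stood at 13.8, 15.2, 16.6 and 16.2 TPM in LOY libraries 1 to 4 and at 12.5, 7.42, 5.68 and 9.85 TPM in control libraries 1 to 4, without overlap (log2 fold change 0.78). Without overlap and with LOY higher there was thus 1 of the 10 genes, beside 6.76% of all genes. Lrpprc, which stabilises mitochondrial mRNAs, had a log2 fold change of 0.64, and Tfam, which packs mitochondrial DNA, of -0.24. The 13 mRNAs encoded by mitochondrial DNA had a median log2 fold change of 0.01, beside 0.16 for all genes. Of them 6 were below 0 (46.2% beside 31.8% of all genes), and none passed in either direction. Their summed level was 11480, 23910, 21070 and 25280 TPM in LOY libraries and 18700, 21840, 21870 and 20680 TPM in control libraries, with LOY library 1 below, LOY library 3 inside and LOY libraries 2 and 4 above the control range.

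Of 16 import and assembly partners outside the name rule, 12 were below 0 (75% beside 31.8% of all genes), with a median of -0.13 beside 0.16. They include Timmdc1, whose symbol has no digit after Timm, with a log2 fold change of 0.26. At an unadjusted limma p under 0.05, 2 were lower (12.5% beside 3.45% of all genes) and none was higher (beside 19.3%). Without overlap and with LOY lower were 3 of the 16 (18.75% beside 2.61% of all genes), and with LOY higher none (beside 6.76%). Dnajc19 and Dnajc15, both J-domain partners of the import motor, had log2 fold changes of -0.45 and -0.32, and the motor chaperone Hspa9 one of 0.30. Among 17 genes for processing and folding in the matrix and for mitochondrial proteases 4 were higher and none lower. The share higher was 23.5% beside 19.3% of all genes, and the median 0.20 beside 0.16, both near the values of all genes. Without overlap and with LOY higher, however, were 4 of the 17, beside 6.76% of all genes, and with LOY lower none, beside 2.61%. Those with the smallest p were the chaperonin gene Hspd1 at 0.31, the inner membrane protease gene Yme1l1 at 0.34 and the protease subunit gene Clpx at 0.30. No gene of these lists had a limma adjusted p under 0.05.

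Transcript length moved with the fold change across all genes. Over 11663 genes with an annotated length, Spearman's rho between the log2 fold change and the length of the longest annotated transcript was 0.49, and over the 101 ribosome and import genes it was -0.071; genes of one library share its depth and preparation, and genes are not replicates. Among genes of up to 1000 bases the median log2 fold change was -0.26 for 20 ribosome and import genes and -0.12 for 947 other genes, and from 1000 to 2000 bases it was -0.21 (31 genes) and -0.09 (1950 genes). Between 2000 and 4000 bases it was -0.22 (35 genes) and 0.15 (4652 genes), and above 4000 bases -0.40 (15 genes) and 0.36 (4013 genes). Of the other genes, 58.7% lay below 0 up to 1000 bases and 64.8% from 1000 to 2000 bases. For ribosome and import genes these shares were 100% and 90.3%. From 2000 to 4000 bases and above 4000 bases the shares were 27.7% and 12.6% of other genes. They were 91.4% and 93.3% of ribosome and import genes. The longest annotated transcript need not be the one expressed. Within a library, Spearman's rho between length and the deviation of a gene from its mean over libraries was 0.166, 0.367, 0.165 and 0.383 in LOY libraries 1 to 4 and 0.257, -0.413, -0.465 and -0.286 in control libraries 1 to 4, so that control library 1 was on the side of the LOY libraries. The part of length in the differences was not tested beyond the removal of a trend. With a trend on length and GC content removed from each library, the medians were -0.25 for ribosome genes, -0.17 for import genes and -0.01 for all genes; 87 of the 101 were below 0, and 34 ribosome and 8 import genes were lower at an unadjusted limma p under 0.05, beside 7.76% of all genes lower and 7.55% higher.

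**Figure D5:**
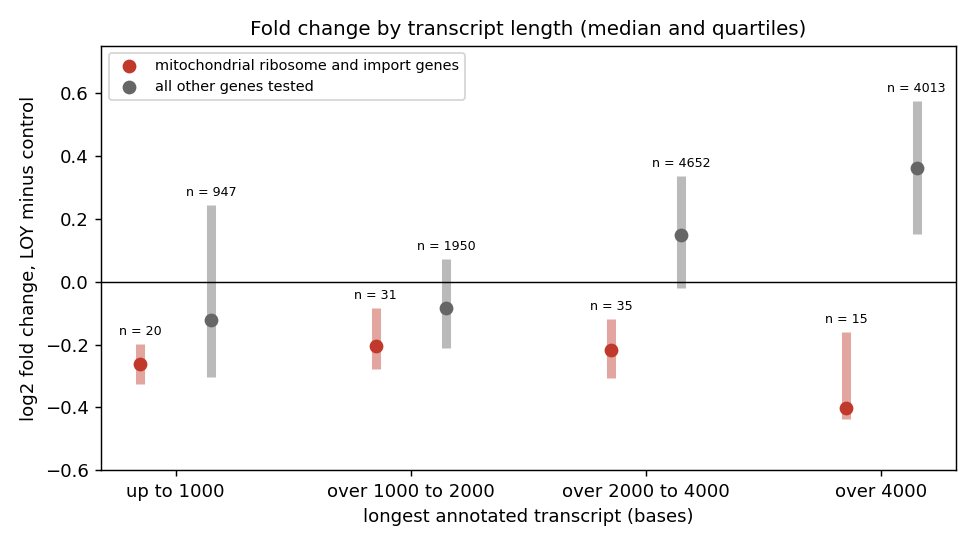
Median (point) and quartiles (bar) of the log2 fold change (LOY minus control, y axis) by class of longest annotated transcript (x axis, bases) for the ribosome and import genes and for all other genes tested. The medians run from -0.12 to 0.36 in other genes and lie between -0.40 and -0.21 in the ribosome and import genes.

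Scaling moved the whole distribution. After median-of-ratios scaling the median of all genes was 0.00 in place of 0.16, so about as many of all genes lay below 0 as above. Of the 101 genes 98 were below 0, against 94 without rescaling, a change that came with this shift of all genes. At an unadjusted limma p under 0.05, 51 ribosome and 16 import genes were lower, beside 11% of all genes lower and 10.8% higher. With no filter on low values they were 9 and 1, beside 0.57% of all genes lower and 2.91% higher. With quantile normalization 98 were also below 0, where the median of all genes was -0.02. At an unadjusted limma p under 0.05, 9.7% of all genes were lower and 9.74% higher in that setting. Of all genes at that p, 84.8% were higher in LOY libraries without rescaling and 49.6% after median-of-ratios scaling. Relative to the median of all genes, the ribosome median was -0.42 before and -0.44 after median-of-ratios scaling, and the import median was -0.37 and -0.39. That scaling divides all genes of a library by the same factor, so these distances could hardly move. Other settings did move them, to -0.35 and -0.28 with quantile normalization and -0.24 and -0.16 with the length and GC trend removed. Without control library 3 they were -0.30 and -0.31.

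Markers of other cell types were present at low levels. Neutrophil markers summed to 83.6 to 102 TPM in LOY and 44.5 to 88.9 TPM in control libraries, mostly from Csf3r, with Ly6g at no more than 0.197 TPM and Camp at 0 in all but 1 library. B cell markers summed to 39.6 to 46.6 TPM in LOY and 51.5 to 77.1 TPM in control libraries, nearly all from Cd79b. Cardiomyocyte markers summed to 116 to 228 TPM in LOY and 87.2 to 181 TPM in control libraries, and these sums overlapped between the groups. The log2 fold change was above 0 for 7 of 7 tested, and for 8001 of all 11725 genes tested. Of these 7 markers 1 was higher at an unadjusted limma p under 0.05, beside 19.3% of all genes. Fibroblast markers (18.2 to 32.3 TPM in LOY, 17.8 to 33.1 TPM in control), endothelial markers (19.9 to 39.0 TPM in LOY, 23.1 to 28.0 TPM in control) and T cell markers (1.91 to 3.13 TPM in LOY, 1.95 to 2.84 TPM in control) overlapped between the groups. The part of any of these cells in the differences was not tested.

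Some values may hold reads of other genes. Of the 101 genes, 27 share over 10% of the 51-base words of their transcripts with another gene, and their levels are uncertain. Among them are Timm23 (90.8%), Tomm6 (77.1%), Mrps25 (73.9%), Tomm40l (63.9%), Timm8a1 (41%) and Mrpl27 (38.2%). The library kit keeps no strand, and 38 genes overlap an exon of a gene on the opposite strand and 11 one on the same strand. Among the 50 genes with none of these features 47 had a log2 fold change below 0, beside 31.8% of all genes tested. Mrpl23-ps1, left out by its name, is annotated as a processed pseudogene and had 172, 166, 182 and 162 TPM in LOY libraries 1 to 4 against 191, 231, 268 and 198 TPM in control libraries 1 to 4, so the level of its parent Mrpl23 is uncertain as well.

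In the authors' deposited table the median log2 fold change was -0.23 over ribosome genes, -0.18 over import genes and 0.21 over all genes tested here. The authors' deposited table has 93 of the 101 genes below 0, beside 3416 of the 11725 genes tested here. By its unadjusted p under 0.05, 4 were lower, beside 0.828% of all genes: Timm17a (log2 fold change -0.47, p = 0.042), Mrps26 (-0.47, p = 0.035), Mrpl27 (-0.46, p = 0.049) and Mrpl11 (-0.46, p = 0.039), all from the authors' deposited table. Higher was 1, beside 23.8% of all genes: Tomm70a, with a log2 fold change of 0.51 in the authors' deposited table. Of the 32 genes at an unadjusted limma p under 0.05, 6 had a fold change over 1.5 times smaller in the authors' deposited table. These were Mrps25 (-0.12), Timm17b (-0.17), Mrps5 (-0.20), Mrpl33 (-0.24), Mrpl19 (-0.25) and Mrpl51 (-0.16), on the log2 scale of the authors' deposited table. None of the 101 had an adjusted p under 0.05 in the authors' deposited table, in which 0.103% of all genes were lower and 4.34% higher by that rule. The mean over libraries in the authors' deposited table, whose values are whole multiples of 1/8 as a mean of 8 counts is, lay between 310.5 and 4315 for these genes.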

How the data were processed

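RNA was measured in 8 libraries of sorted left-ventricle macrophages (4 LOY, 4 control). The submitters' processing notes name the tools STAR 2.5.2b, Subread 1.5.2 with featureCounts, Trimmomatic 0.36 and bcl2fastq 2.17, and as builds mm10 and GRCm38; no source used here says how TPM was computed. The authors deposited TPM per gene and library, and their own comparison as a log2 fold change, its standard error, a score (their ratio), a p-value, an adjusted p-value and a mean over libraries, per the file headers. Columns headed KO were taken for LOY and those headed WT for control, each number being taken for the label's replicate.

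Of 36708 gene IDs, 11881 had a mean of at least 1 TPM; 156 that repeat the values of another ID were removed. On log2(TPM + 1), which understates changes of low genes, LOY was compared with control by limma 3.58.1 (R 4.3.3; trend and robust fit) over 11725 genes, two-sided, with Benjamini-Hochberg adjustment at 0.05, in a script checked on simulated data. For a member the 95% interval of the log2 fold change had a median half-width of 0.30. Depth per library is unknown, so no counting interval is given. Lengths and coordinates came from GENCODE M21 on GRCm38 by gene ID (35868 found), promoters from RefSeq (GRCm38.p6). Python 3.11.15 and scipy 1.17.1 gave the exact permutation test.

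The members and lists were chosen with earlier results of these data known. Named genes were all import genes, the 5 Mrpl and 5 Mrps genes with the smallest p, the 2 with the highest and the 2 with the lowest mean of each, and the 3 genes with the smallest p of each other list; the others were chosen after their values were seen. Alternatives were pseudocounts of 0.1 and 5, no filter or a mean of at least 5 TPM, quantile and median-of-ratios scaling, a replicate block, other limma options, library weights, repeated IDs kept, removal of a length and GC trend, and leaving out libraries.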

Additional observations from a re-analysis of the deposited data

Results flagged for a closer look

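Of 88 groups of 4 values looked at, 8 held a library whose gap to its nearest neighbour as a share of the group's range was over Dixon's 95% limit, which chance passes in about 1 of 20 groups. Among large-subunit genes, LOY library 1 was low in Mrpl1 (6.43 TPM, the other LOY libraries 12.5 to 13.4 TPM), and LOY library 2 was high in Mrpl11 (34.8 TPM, the others 30.9 to 31.2 TPM). Among small-subunit genes, LOY library 3 was high in Mrps21 (225.6 TPM, the others 187 to 191 TPM), and LOY library 4 was high in Mrps5 (30.8 TPM, the others 21.2 to 21.5 TPM).

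Import genes gave 3 such values. LOY library 4 was low in the pore gene Tomm40 (42.7 TPM, the other LOY libraries 59.3 to 62.6 TPM), and LOY library 1 was low in Tomm7 (31.5 TPM, the others 56.3 to 57.9 TPM). Control library 3 was high in Timm10b (259.6 TPM, the other control libraries 192 to 199 TPM). The summed Y genes were high in LOY library 2 (46.4 TPM, the other LOY libraries 1.495 to 2.77 TPM), which was left out in the counts given for that purpose.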

How the results depend on the processing

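The counts at an unadjusted limma p under 0.05 (27 ribosome genes lower, 3 import genes lower, 2 genes higher with all libraries) moved with scaling and with the filter. They were 42, 11 and 0 with quantile normalization, beside 9.7% of all genes lower and 9.74% higher, 51, 16 and 0 with median-of-ratios scaling, and 9, 1 and 0 with no filter on low values, beside 0.57% of all genes lower and 2.91% higher. Medians were -0.36 (ribosome) and -0.30 (import) with quantile normalization and -0.44 and -0.39 with median-of-ratios scaling. With the length and GC trend removed, 8 import genes were lower and 1 gene was higher, beside 7.76% of all genes lower and 7.55% higher. With the replicate block added they were 8 and 0. With library weights 5 import genes were lower; at a limma adjusted p under 0.05 that setting gave 23 ribosome and 2 import genes lower, beside 3% of all genes, and 1 gene higher, Tomm70a, beside 23.5%. Without control replicate 1 and LOY replicate 2 together, 1 import gene was lower and 0 genes were higher. For this fit, the replicate block and library weights, the share of all genes at an unadjusted p was not counted. Those counts therefore have no background beside them.

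Leaving out each library in turn gave 15 to 30 ribosome genes lower (15 without LOY 4 or control 2, 17 without control 3), 1 to 7 import genes lower (1 without LOY 2, 7 without LOY 3) and 0 to 3 genes higher (0 without LOY 2 or LOY 4; 1 without LOY 3 or controls 2, 3 or 4). At the adjusted threshold the ranges were 0 to 8 ribosome and 0 to 1 import genes lower, the highest counts without control 1. The ribosome median minus the import median lay between -0.071 and 0.0058, the upper end without control replicate 3. In the Y gene check the difference lay between -95.1 and -80.1 TPM (exact permutation p = 0.0571, the smallest possible with 3 against 4).

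Single genes changed sign as follows. Mrpl1 was 0.064 with library weights and 0.052 without LOY 1 (range without 1 or 2 libraries -0.31 to 0.052). Timm10 was 0.0060 with library weights, 0.016 with the length and GC trend removed (with and without the block), 0.094 without LOY 1 and 0.016 without control 4 (lowest with libraries left out -0.27). Timm44 was -0.0084 with quantile normalization, -0.018 with median-of-ratios scaling, -0.075 with the length and GC trend removed (with and without the block) and -0.014 without control 1 and LOY 2 (highest with libraries left out 0.30, without LOY 1). Tomm34 was -0.016, -0.060 and -0.013 with quantile normalization, median-of-ratios scaling and the length and GC trend removed (with and without the block). Tomm40l was 0.070, 0.033 and 0.011 without LOY 1, LOY 4 and control 4; otherwise it was lowest at -0.18 with 1 library left out (without control 3), -0.26 with quantile normalization, -0.23 with median-of-ratios scaling and -0.42 with the length and GC trend removed. The cause was not tested.

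Over genes, the deviations from the group mean had r between -0.15 and 0.039 for libraries with the same replicate number. For libraries with different numbers r lay between -0.37 and 0.35. These values cannot tell whether libraries with the same number were handled together. With the number as a block 30 ribosome and 6 import genes were lower at an unadjusted limma p under 0.05. The share of all genes was not counted for that fit, so these counts have no background beside them. The depth behind the TPM values is unknown, 4 libraries a group limit the precision, and repeated IDs, pseudocounts and a mean of at least 5 TPM left the counts within 1.5 times those above.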
